A study of Mus musculus with 8 samples.

Results

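The genes described here build the cornified layer of skin. They are the mouse protein-coding genes whose symbols start with Lce1, Lce3 or Sprr, together with 24 named genes of envelope assembly and late epidermal differentiation. The choice gave 59 genes, all found among the 32728 genes of the count table. They were measured in organoids labelled as mouse colon cancer, which are self-organising cultures of epithelial cells. All libraries came from C57BL/6 cells in which Apc, p53 (Trp53) and Smad4 had been knocked out by CRISPR, and all media held B27, noggin, which blocks BMP ligands, and galunisertib, which inhibits the TGF-beta receptor. The line apsMC706, labelled female, and the line CTO19, labelled male, were each sampled after 3 days with EGF (EM) and after 7 days of growth that began when EGF was taken out (noEGF). That gave 4 groups of 2 libraries.

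The cornified envelope replaces the plasma membrane of a dying keratinocyte. Transglutaminases cross-link precursor proteins such as involucrin, loricrin, the small proline-rich (Sprr) proteins and the late cornified envelope (Lce) proteins into an insoluble shell, lipids are attached to its outside, and filaggrin and its relatives bundle the keratin filaments within. Many of these genes lie side by side in the epidermal differentiation complex, which is on chromosome 3 in the mouse. The columnar epithelium of the colon makes no cornified layer, and the Sprr genes are among the few of these genes also known from gut epithelium.

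Library totals ran from 35650262 to 38953838 counts, and the libraries of a group lay close together. Levels are in CPM, counts per 1000000 counts of TMM-scaled library size, and are given for libraries 1 and 2 of a group in that order. Where a library had 0 counts, a level of up to 3 counts remains possible, which is 0.0745 to 0.0868 CPM. The transcripts of the knocked-out genes were still counted in every library, Apc at 59.8 to 198 CPM, Trp53 at 13.0 to 33.3 CPM and Smad4 at 10.8 to 39.9 CPM, which by itself does not check the edits because a CRISPR lesion need not remove the transcript. Medium cannot be told apart from days in culture, nor line from labelled sex. The labels call the lines biological replicates and do not say that the 2 libraries of a group came from separate cultures, so p-values measure the spread between these libraries. In bulk RNA, fewer cells of a type and less RNA per cell cannot be told apart.

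The label of colon tissue was checked against marker genes. In apsMC706 the intestinal genes Cdh17, Vil1, Hnf4a and Cdx2 had mean levels of 336, 226, 70.8 and 9.32 CPM in EM. In CTO19 the same genes were at 1.25, 28.2, 0.0707 and 2.05 CPM in EM. The keratins Krt5 and Krt14, which define the basal layer of stratified squamous epithelium, were at 1.60 and 1.36 CPM in apsMC706 and at 3790 and 3480 CPM in CTO19 in EM. Trp63, the transcription factor of that layer, was at 0.0537 CPM in apsMC706 and 130 CPM in CTO19. Hnf4a in CTO19 EM was near the detection limit. In noEGF the CTO19 means were 5.73 CPM for Cdh17, 55.1 for Vil1, 0.767 for Hnf4a and 1.10 for Cdx2. Krt8, Krt18 and Epcam, on the same intestinal list, were high in both lines. The squamous markers of the CTO19 libraries go against the label of colon tissue and put it in doubt for that line, so each comparison between lines below is one between the libraries labelled CTO19 and those labelled apsMC706.

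Most of the 59 genes were almost silent in apsMC706, moderately expressed in CTO19 with EGF and highest in CTO19 without EGF. The exceptions in apsMC706 were 4 similar Sprr2 genes and, at far lower levels, a few others. Among these others, Tgm1 had means of 19.4 CPM in EM and 27.6 CPM in noEGF, and Tchh 9.84 and 9.55 CPM. Leaving out Sprr2a1, Sprr2a2, Sprr2a3 and Sprr2b, the other 55 summed to 39.3 to 43.1 CPM in apsMC706 EM, 87.2 to 88.4 in apsMC706 noEGF, 982 to 1040 in CTO19 EM and 6130 to 6780 in CTO19 noEGF. The 4 Sprr2 genes summed to 3350 to 3400, 3610 to 3650, 2740 to 2930 and 3520 to 4130 CPM in the same order. All 59 genes together took 0.337% to 0.38% of counts in the EM libraries of both lines, 0.369% and 0.379% in apsMC706 noEGF, and 0.988% and 1.13% in CTO19 noEGF. A mean of at least 1 CPM was reached by 9 of the 59 genes in apsMC706 EM, 13 in apsMC706 noEGF, 35 in CTO19 EM and 56 in CTO19 noEGF. In CTO19 noEGF the 3 genes below that level were Sprr2k, Sprr2j-ps and Sprr3.

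**Figure D1:**
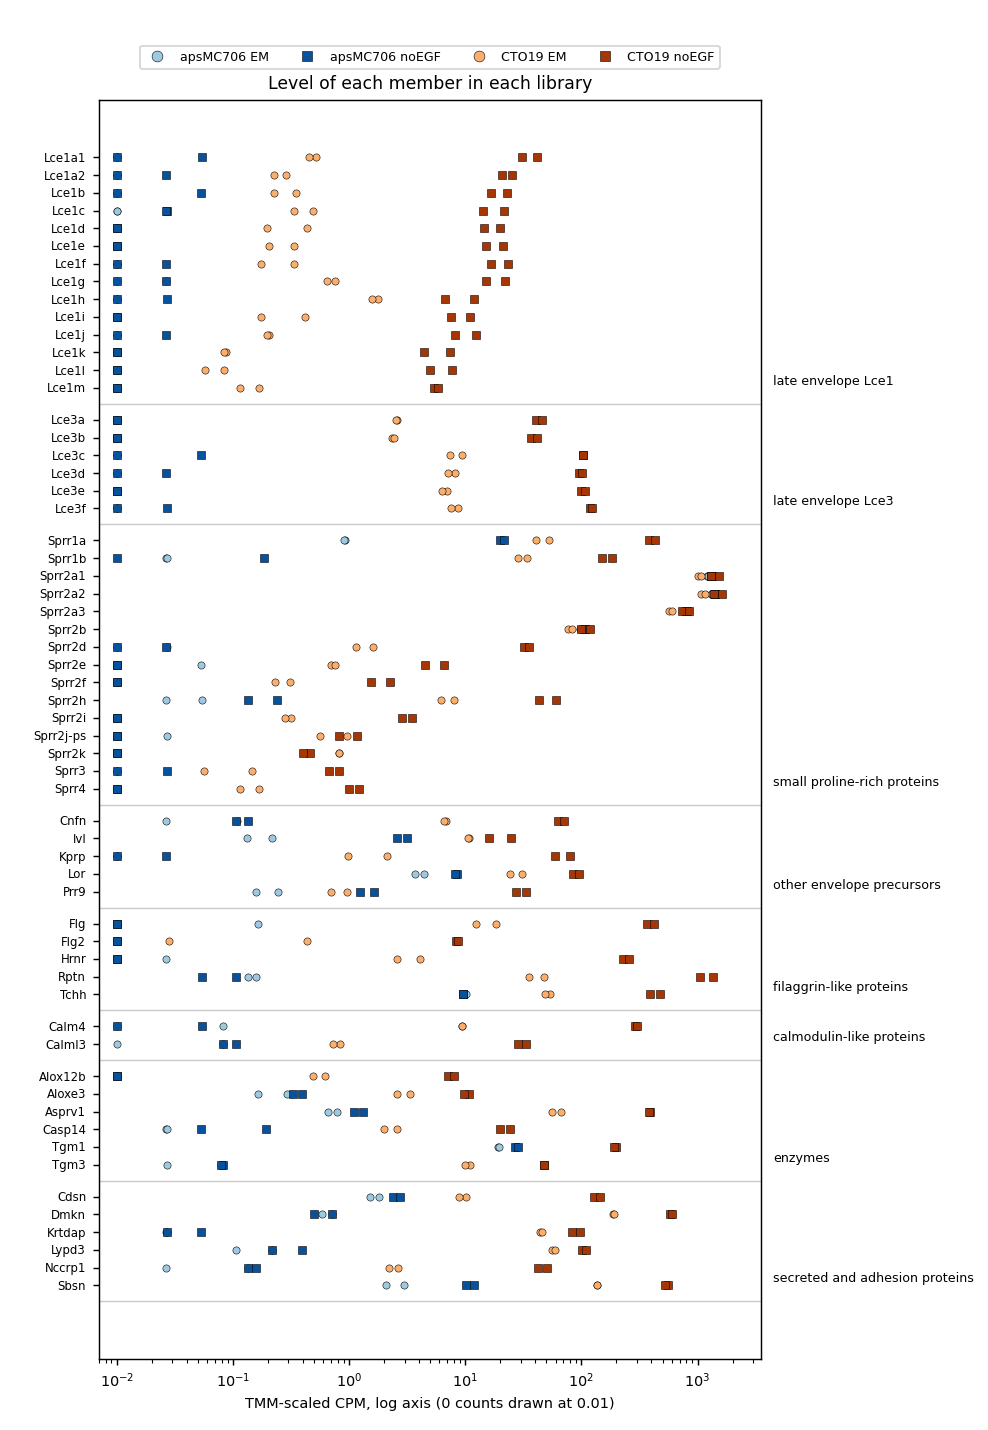
Level of each of the 59 genes in each of the 8 libraries, in TMM-scaled CPM on a log axis, with genes in rows by role. Light and dark blue mark apsMC706 in EM and noEGF, light and dark orange CTO19 in EM and noEGF, and libraries with 0 counts are drawn at 0.01. For most genes the dark orange squares lie to the right of the other points, and the 4 groups lie together for Sprr2a1, Sprr2a2, Sprr2a3 and Sprr2b.

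All 59 genes passed the filter on low counts, and CTO19 carried them through it. In CTO19, 59 genes reached 10 counts in both libraries of a group, and in apsMC706, 15 did. In apsMC706, 43 genes had under 10 counts in every library, and 15 had 0 counts in all 4 libraries. The genes were chosen with earlier results on these libraries known, among them the higher levels of Calml3, Prr9 and Nccrp1 in noEGF and in CTO19. Responses to noEGF and the line differences in both media are therefore described without p-values. The test of whether the lines responded differently is given with p-values adjusted over all 16719 genes tested, which do not allow for the choice of genes. Each such difference contains the CTO19 response that the choice used, so its p-value is a description and not independent support. A gene is called where the adjusted p of edgeR's quasi-likelihood test is under 0.05.

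In CTO19, 56 of the 59 genes were called higher in noEGF than in EM, where 34.7% of all genes tested were called higher, and 1 was called lower, where 33.3% of all genes were. The median log2 fold change was 3.69 over the 59 genes and 0.02 over all genes tested. Because the choice of genes used this comparison, nothing is read from these counts. A level at least 10-fold higher in noEGF was seen in 32 of the 59 genes and in 293 of the 16719 genes tested.

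The Lce1 genes, whose small cysteine-rich products enter the envelope late, included the largest changes in CTO19. The 14 Lce1 genes summed to 5.28 to 5.62 CPM in EM and 181 to 253 CPM in noEGF. Lce1a1 (ENSMUSG00000057609, chromosome 3, 92646535 to 92648307 in mm10) was at 0.521 and 0.450 CPM in EM and at 30.8 and 41.2 CPM in noEGF, a 74.2-fold higher mean (log2 fold change 6.21, SE 0.252). Both noEGF libraries lay far above both EM libraries. Lce1b went from 0.347 and 0.225 CPM to 16.5 and 22.8 CPM, and Lce1c from 0.492 and 0.337 CPM to 14.2 and 21.4 CPM. The other members showed the same gap between media at different heights. Lce1a2 had the largest ratio of the group, 89.3-fold (18 counts in the 2 EM libraries against 1784 in noEGF), and Lce1l followed at 89.0-fold from only 5 counts in EM. Lce1h stood apart with 1.77 and 1.57 CPM in EM, the highest EM level of the family, and 6.65 and 12.0 CPM in noEGF, a 5.58-fold difference. In all 14 Lce1 genes the noEGF library 2 of CTO19 was above library 1, by a median ratio of 1.44, against 1.16 over all 59 genes. In apsMC706, 6 Lce1 genes (Lce1d, Lce1e, Lce1i, Lce1k, Lce1l and Lce1m) had 0 counts in all 4 libraries and the other 8 had at most 2 counts in a group.

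The Lce3 genes, which in skin are associated with wounding and inflammation, started higher and changed less than the Lce1 genes other than Lce1h. The 6 Lce3 genes summed to 33.3 to 38.0 CPM in CTO19 EM and 493 to 524 CPM in noEGF. Lce3f (ENSMUSG00000068885, chromosome 3, 92992226 to 92993426 in mm10) was at 8.71 and 7.53 CPM in EM and 118 and 124 CPM in noEGF, 14.9-fold higher. Lce3c was at 9.35 and 7.36 CPM in EM and 103 and 104 CPM in noEGF. The least abundant, Lce3b, was at 2.34 and 2.44 CPM and then 36.7 and 41.3 CPM. The ratios of the 6 genes lay within a narrow band, from 12.4-fold (Lce3c) to 16.8-fold (Lce3a), while those of the Lce1 genes ran from 5.58-fold to 89.3-fold. The noEGF libraries of CTO19 lay close together for Lce3, with a median ratio of library 2 to library 1 of 1.07. Lce3a, Lce3b and Lce3e had 0 counts in all 4 apsMC706 libraries.

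Reads from the Lce genes may be shared between copies. The share of a transcript's 50-base windows found exactly in a transcript of another gene was 0% (Lce1m) to 27.1% (Lce1i) in the Lce1 family and 12.1% (Lce3b) to 49.3% (Lce3d) in the Lce3 family. Levels of single Lce genes are uncertain to that extent, since no source used here says how shared reads were counted.

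The sequences before these genes are shown because members of each family were higher together in CTO19 noEGF. The windows below are the 200 bases before the RefSeq start in GRCm38.p6 (the mm10 build), 5′ to 3′ on the strand of the gene. Capitals mark TATAAA (the TATA box), TGANTCA (the AP-1 site) and the AT-rich run ATAAAA, each searched on both strands. The AT-rich run was added to the search after the windows had been seen, and it overlaps TATAAA where both are present.
Lce1b (chr3:92656927-92657126, reverse strand): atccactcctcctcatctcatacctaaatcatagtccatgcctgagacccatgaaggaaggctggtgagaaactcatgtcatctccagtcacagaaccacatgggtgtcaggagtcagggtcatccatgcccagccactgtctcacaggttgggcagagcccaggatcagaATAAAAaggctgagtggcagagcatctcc
Lce1c (chr3:92679047-92679246, forward strand): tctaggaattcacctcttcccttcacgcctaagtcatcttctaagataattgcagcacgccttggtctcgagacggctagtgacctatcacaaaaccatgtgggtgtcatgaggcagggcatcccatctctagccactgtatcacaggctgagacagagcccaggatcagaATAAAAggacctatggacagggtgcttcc
Lce3c (chr3:92944286-92944485, forward strand): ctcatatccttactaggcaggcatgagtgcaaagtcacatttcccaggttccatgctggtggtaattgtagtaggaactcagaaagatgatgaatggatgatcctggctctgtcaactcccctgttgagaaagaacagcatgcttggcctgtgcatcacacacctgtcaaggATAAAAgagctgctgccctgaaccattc
Lce3d (chr3:92957190-92957389, forward strand): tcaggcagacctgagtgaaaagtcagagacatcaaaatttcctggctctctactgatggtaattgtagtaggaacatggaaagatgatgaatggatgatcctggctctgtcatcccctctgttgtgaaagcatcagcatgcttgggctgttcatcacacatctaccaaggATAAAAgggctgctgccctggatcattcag
Of the 13 Lce1 genes with a window, 12 held ATAAAA at 28 to 31 bases before the start, and of the 6 Lce3 genes 5 held it at 28 to 30 bases. No Lce1 or Lce3 window of 250 bases held TGANTCA. Over all 53 of the 59 genes with a window, 60.4% held ATAAAA and 39.6% held TATAAA within 250 bases, where 17.6% and 13.0% of 27025 RefSeq genes did. TGANTCA was in 34.0% of the 53 windows and 6.9% of all. TTNNGNAA, a C/EBP-like site, was in 60.4% against 36.9%, and all 6 Lce3 windows held it. CCACCC, a box bound by Klf factors, was in 28.3% against 27.7%, and AACCNGTT, the Grhl site, in 1.9% against 1.7%. Many of these windows come from copies of one ancestral gene and are not independent. A match is a run of letters, not a shown binding site. Kprp, Calml3, Aloxe3, Sprr2j-ps, Nccrp1 and Lce1f had no entry.

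The small proline-rich proteins, flexible cross-bridges of the envelope, split into members that followed the Lce genes and 4 that were high everywhere. Sprr1a (ENSMUSG00000050359, chromosome 3, 92483952 to 92485895 in mm10) was at 52.3 and 40.4 CPM in CTO19 EM and 380 and 433 CPM in noEGF, 8.76-fold higher (log2 fold change 3.13, SE 0.133). Sprr1b, its neighbour in the family, went from 33.7 and 28.4 CPM to 149 and 182 CPM. Sprr2d had the largest ratio, 24.4-fold, from 1.62 and 1.15 CPM to 32.1 and 35.5 CPM. At lower levels, Sprr2h went from 8.05 and 6.24 CPM to 43.1 and 60.8 CPM and Sprr2e from 0.695 and 0.759 CPM to 4.52 and 6.53 CPM. In each of these 5 genes both noEGF libraries lay above both EM libraries. Sprr2i (10.6-fold), Sprr4 (7.75-fold), Sprr3 (7.43-fold) and Sprr2f (6.97-fold) were higher too, and each stayed under 4 CPM.

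Sprr2k went the other way and Sprr2j-ps was not called. Sprr2k was at 0.811 and 0.815 CPM in CTO19 EM and 0.457 and 0.398 CPM in noEGF, on 57 and 33 counts in the group, and was the 1 gene called lower. That call was lost without CTO19 EM replicate 1 (log2 fold change -0.93), without CTO19 EM replicate 2 (-0.92) and without CTO19 noEGF replicate 2 (-0.81). Sprr2j-ps, which the annotation types as protein-coding despite a name given to pseudogenes, was at 0.955 and 0.562 CPM in EM and 1.16 and 0.820 CPM in noEGF, so that its groups overlapped.

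Sprr2a1, Sprr2a2, Sprr2a3 and Sprr2b were the most abundant of the 59 genes in apsMC706 and lay in the same range in CTO19. Sprr2a2 was at 1300 and 1320 CPM in apsMC706 EM, 1400 and 1420 in apsMC706 noEGF, 1080 and 1160 in CTO19 EM and 1390 and 1630 in CTO19 noEGF. Sprr2b was at 98.3 and 97.7, 107 and 107, 76.1 and 83.3, and 100 and 118 CPM in the same order. In CTO19 the 4 genes were 1.34-fold to 1.37-fold higher in noEGF and in apsMC706 1.07-fold to 1.09-fold. The CTO19 calls of Sprr2a1 and Sprr2a2 were lost without CTO19 EM replicate 1. Ratios within the 4 genes hardly moved between media and differed a little between lines. Sprr2a3 was 56.9% to 57.1% of the Sprr2a2 count in the apsMC706 libraries and 51.9% to 52.5% in the CTO19 libraries. Sprr2b was 7.4% to 7.6% of it in apsMC706 and 7.03% to 7.23% in CTO19.

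Most of the counts of Sprr2a1, Sprr2a2 and Sprr2a3 cannot be securely assigned to single copies, and the same holds for a smaller part of those of Sprr2b. Of the 50-base windows of the transcripts, 96.3% of Sprr2a1, 96.5% of Sprr2a2, 61.1% of Sprr2a3 and 14.1% of Sprr2b were also found in another gene, and the exons of Sprr2a1 and Sprr2a2 overlap in the annotation. The first 90 coding bases show how close the copies are, read from the GENCODE M21 transcripts in mm10. Capitals mark bases that differ from Sprr2a3.
Sprr2a3: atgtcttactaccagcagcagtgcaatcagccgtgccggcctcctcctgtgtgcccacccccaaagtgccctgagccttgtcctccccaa
Sprr2a1: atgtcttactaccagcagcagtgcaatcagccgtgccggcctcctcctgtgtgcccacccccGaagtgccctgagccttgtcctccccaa
Sprr2b: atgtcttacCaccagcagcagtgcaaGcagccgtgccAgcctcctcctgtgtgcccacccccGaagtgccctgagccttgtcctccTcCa
Sprr2d: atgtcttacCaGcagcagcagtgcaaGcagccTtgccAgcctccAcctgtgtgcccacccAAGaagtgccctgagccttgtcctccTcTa
Sprr2h: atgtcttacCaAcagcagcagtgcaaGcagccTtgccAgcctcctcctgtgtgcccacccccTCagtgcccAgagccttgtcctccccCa
Sprr2a1 and Sprr2a2 had the same 1 difference in this stretch, Sprr2b had 6, Sprr2h 9 and Sprr2d 11. Sprr2d and Sprr2h, which shared 4.3% and 0% of their windows with other genes, were 24.4-fold and 7.27-fold higher in CTO19 noEGF, so their values rest largely on reads of their own. The windows before the starts of Sprr2d (24.4-fold higher in CTO19 noEGF), Sprr2e (7.61-fold) and Sprr2a3, with a flat level, are shown for comparison. Capitals have the meaning given above.
Sprr2d (chr3:92338940-92339139, forward strand): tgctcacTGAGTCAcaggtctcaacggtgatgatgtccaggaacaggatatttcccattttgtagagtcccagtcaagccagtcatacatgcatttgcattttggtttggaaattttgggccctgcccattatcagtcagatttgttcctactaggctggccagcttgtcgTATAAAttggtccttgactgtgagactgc
Sprr2e (chr3:92351943-92352142, forward strand): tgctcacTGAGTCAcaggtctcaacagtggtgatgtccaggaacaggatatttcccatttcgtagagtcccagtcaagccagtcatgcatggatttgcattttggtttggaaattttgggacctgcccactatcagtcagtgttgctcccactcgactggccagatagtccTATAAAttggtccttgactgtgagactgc
Sprr2a3 (chr3:92285104-92285303, forward strand): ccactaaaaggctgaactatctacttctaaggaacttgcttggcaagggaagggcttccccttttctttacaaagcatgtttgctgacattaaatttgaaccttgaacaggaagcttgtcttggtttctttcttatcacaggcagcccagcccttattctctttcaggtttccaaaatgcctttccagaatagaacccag
Of the 10 Sprr2 genes with a window, 7 held TATAAA at 29 bases before the start and 7 held TGANTCA at 193 to 198 bases before it. The 3 without TGANTCA there were Sprr2a1, Sprr2a2 and Sprr2a3, whose windows may not lie at matching positions. The RefSeq window of Sprr2a3 ends at 92285303, while its GENCODE gene starts at 92285417. For Sprr2d the window ends at 92339139 and the gene starts at 92339140. Exon length also differs, at 2883 bases for Sprr2a3 and 681 for Sprr2d. Whether the missing matches come from the annotated start was not tested. Sprr2b held TATAAA and TGANTCA at these positions and had the flat level. Sprr2k also held them and was the 1 gene called lower in CTO19 noEGF.

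Of the remaining envelope precursors, Kprp and Prr9 were far higher in CTO19 noEGF and involucrin was little higher. Kprp, a proline-rich keratinocyte protein, was at 2.14 and 0.983 CPM in EM and 59.3 and 80.0 CPM in noEGF, 44.5-fold higher. Prr9, another small proline-rich protein, went from 0.955 and 0.702 CPM to 33.2 and 27.5 CPM, 36.6-fold. Cnfn (cornifelin) went from 6.83 and 6.57 CPM to 62.4 and 71.4 CPM, 9.98-fold. In each of these 3 genes both noEGF libraries of CTO19 lay far above both EM libraries. Lor (loricrin), the bulk protein of the epidermal envelope, was at 24.5 and 30.5 CPM in EM and 84.8 and 95.1 CPM in noEGF, 3.27-fold higher. Ivl (involucrin), an early scaffold of the envelope, was at 10.7 and 10.6 CPM in EM and 15.9 and 24.7 CPM in noEGF, 1.91-fold higher (log2 fold change 0.94, SE 0.206). The 2 noEGF libraries of Ivl differed more from each other than the lower one did from EM, and its call was lost without CTO19 EM replicate 1 or 2.

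The windows before the starts of Ivl and Prr9 each held a TATA box and an AP-1 site. They are shown because these 2 genes were also higher without EGF in apsMC706. Of the other genes called higher there, Lor and Sprr1a held both motifs within 250 bases and Sbsn only the AP-1 site. Tgm1, Asprv1 and Cdsn held neither. Flg, Rptn, Krtdap, Sprr1b, Sprr2d, Sprr2e, Sprr2f, Sprr2h, Sprr2i and Sprr2k held both and were not called in apsMC706, each on few or no counts. Sprr2b also held both and was not called there, at 1.09-fold, although it had 7304 counts in EM and 7947 in noEGF. No link between these motifs and the response was tested.
Ivl (chr3:92573736-92573935, reverse strand): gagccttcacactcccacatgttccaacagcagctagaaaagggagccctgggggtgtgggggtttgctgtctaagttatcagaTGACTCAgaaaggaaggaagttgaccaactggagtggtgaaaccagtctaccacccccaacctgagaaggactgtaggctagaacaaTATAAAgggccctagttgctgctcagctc
Prr9 (chr3:92123948-92124147, reverse strand): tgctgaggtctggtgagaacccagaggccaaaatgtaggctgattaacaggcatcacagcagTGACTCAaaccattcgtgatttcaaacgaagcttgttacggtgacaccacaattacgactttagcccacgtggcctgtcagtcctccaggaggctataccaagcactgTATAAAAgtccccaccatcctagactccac

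The filaggrin-like proteins, large repeat proteins with an S100 domain that bind keratin, were far higher in CTO19 noEGF than in CTO19 EM. Rptn (repetin, ENSMUSG00000041984, chromosome 3, 93393699 to 93399442 in mm10) was at 47.3 and 35.4 CPM in CTO19 EM and 1040 and 1360 CPM in noEGF, 29.0-fold higher (log2 fold change 4.86, SE 0.217). Flg (filaggrin), whose breakdown products keep the cornified layer moist, went from 18.5 and 12.4 CPM to 367 and 422 CPM, 25.5-fold. Hrnr (hornerin) went from 4.11 and 2.61 CPM to 227 and 258 CPM, 72.2-fold, the largest ratio outside the Lce1 family. Each of these genes was almost absent from apsMC706, with 11, 6 and 1 counts in its EM libraries together and 6, 0 and 0 in noEGF for Rptn, Flg and Hrnr. Flg2 was at 0.434 and 0.0281 CPM in CTO19 EM, where 1 library held 15 counts and the other 1, and at 8.29 and 8.67 CPM in noEGF. Its 36.7-fold ratio therefore rests mostly on EM library 1. Tchh (trichohyalin), a protein of the inner root sheath of hair, was the 1 gene of this class expressed in both lines. It was at 53.2 and 48.7 CPM in CTO19 EM and 472 and 391 CPM in noEGF, 8.46-fold higher.

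The calmodulin-like genes Calm4 and Calml3 are neighbours on chromosome 13 and encode calcium-binding proteins of stratified epithelia, and both had ratios among the largest outside the Lce1 family in CTO19. Calm4 (ENSMUSG00000033765, chromosome 13, 3837757 to 3838673 in mm10) was at 9.32 and 9.41 CPM in CTO19 EM and 288 and 302 CPM in noEGF, 31.5-fold higher. Calml3 was at 0.839 and 0.730 CPM and then 28.5 and 33.5 CPM, 39.5-fold higher. Both were close to the detection limit in apsMC706, with 3 counts each in EM and 2 and 7 in noEGF.

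The enzymes had ratios from 1.0-fold (Tgm1) to 13.6-fold (Alox12b) in CTO19. Alox12b and Aloxe3, lipoxygenases that prepare the lipid coat of the envelope, went from 0.492 and 0.618 CPM to 7.05 and 8.03 CPM (13.6-fold) and from 3.33 and 2.56 CPM to 10.8 and 9.79 CPM (3.5-fold). Casp14, a protease of filaggrin breakdown, went from 2.61 and 1.99 CPM to 19.9 and 24.2 CPM, 9.58-fold. Asprv1, a protease that processes profilaggrin, was at 66.6 and 56.0 CPM in EM and 388 and 382 CPM in noEGF, 6.28-fold higher. The transglutaminases differed from each other. Tgm3 was at 10.9 and 9.95 CPM in EM and 47.6 and 47.5 CPM in noEGF, 4.55-fold higher. Tgm1 (ENSMUSG00000022218, chromosome 14, 55700009 to 55713926 in mm10), the main cross-linking enzyme of the epidermal envelope, was at 195 and 193 CPM in EM and 200 and 190 CPM in noEGF (log2 fold change 0.00, SE 0.0407). Its groups overlapped. Antisense or overlapping gene models touch the exons of Tgm1, Lypd3, Sbsn and Rptn, and the kit does not mark strand, so a part of those counts cannot be assigned.

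Of the 6 secreted and adhesion proteins, Dmkn, Sbsn, Krtdap and Lypd3 were abundant in CTO19 in both media, and Cdsn and Nccrp1 were low in EM. Cdsn (corneodesmosin, ENSMUSG00000039518, chromosome 17, 35552128 to 35557180 in mm10), which holds cornified cells together, was at 10.2 and 8.85 CPM in EM and 128 and 145 CPM in noEGF, 14.3-fold higher (log2 fold change 3.84, SE 0.0827). Nccrp1, a carbohydrate-binding F-box-like protein, went from 2.63 and 2.19 CPM to 42.2 and 50.3 CPM, 19.2-fold. Dmkn (dermokine), Krtdap and Sbsn (suprabasin) are secreted products of adjacent genes on chromosome 7. Dmkn was at 188 and 190 CPM and then 574 and 607 CPM (3.12-fold). Sbsn was at 136 and 137 CPM and then 558 and 529 CPM (3.99-fold), and Krtdap was at 43.6 and 45.5 CPM and then 83.3 and 98.1 CPM (2.04-fold). Lypd3, a surface protein anchored by a lipid, was at 56.2 and 58.9 CPM and then 101 and 109 CPM (1.83-fold). The 4 abundant genes of this class thus had smaller ratios than Cdsn and Nccrp1.

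**Figure D2:**
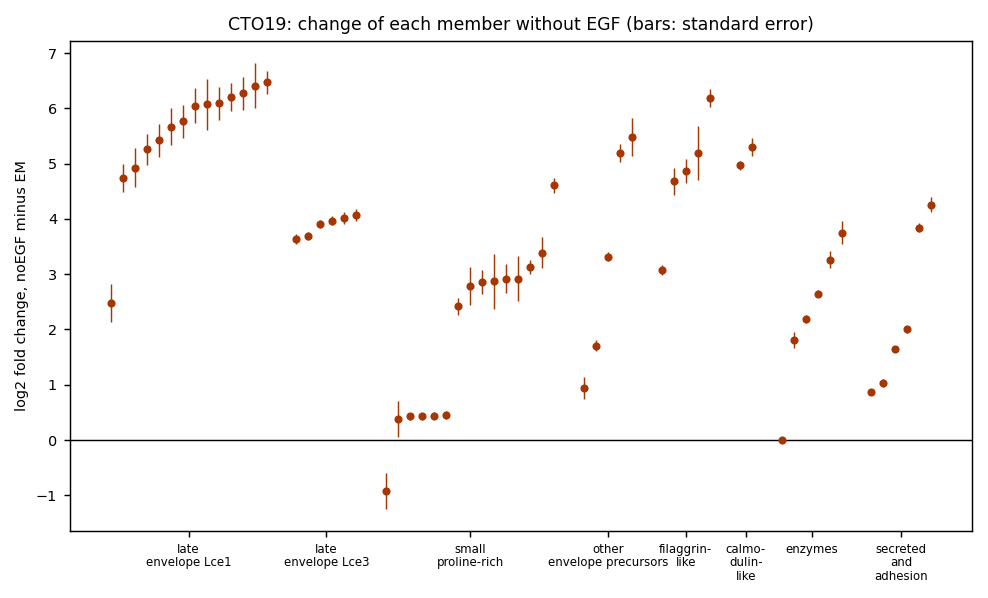
Log2 fold change of each of the 59 genes in CTO19, noEGF minus EM, ordered by size within each role, with bars of 1 standard error. The Lce1 genes run from 2.48 to 6.47 and include the highest value, the Lce3 genes lie between 3.63 and 4.07, and the small proline-rich proteins spread from -0.92 to 4.61.

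Levels of different genes can be compared only per transcript length. In CTO19 noEGF, on the scale of mean CPM per kilobase of exon, Sprr2a2 was at 519, Sprr1a at 504, Sprr2a1 at 472, Calm4 at 321, Rptn at 289, Sprr2a3 at 273, Dmkn at 269 and Asprv1 at 249, followed by Lce3d and Sprr1b at 200 each. The values of the Sprr2 genes rest on shared reads. In CTO19 noEGF library 2 was above library 1 in 49 of the 59 genes, with a median ratio of 1.16 and a range of 0.707 to 1.80. In CTO19 EM library 2 was above library 1 in 21 of the 59, with a median ratio of 0.909. The mitochondrially encoded share of counts, 2.94% to 3.68% in EM and 4.13% to 5.19% in noEGF, was higher in noEGF in both lines. Its part in these results was not tested.

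In all, 44 of the 59 genes lie on chromosome 3 between Lor and Tchh, from 92080271 to 93449077 in mm10, a span of 1370 kb with 55 protein-coding genes. The other 11 coding genes of the span were taken as they stand. Of these 8 were in the count table and 6 were tested. In CTO19, 4 of the 6 were called higher in noEGF and 2 lower, in apsMC706 0 higher and 2 lower. Over all genes 34.7% were called higher and 33.3% lower in CTO19, and 34.1% and 33.1% in apsMC706, so the share called lower was near the background in both lines. Crct1, a cysteine-rich protein, went from 11.4 and 9.66 CPM to 147 and 149 CPM in CTO19, and Crnn (cornulin) from 1.27 and 1.60 CPM to 26.7 and 33.3 CPM. In apsMC706 Crnn had 0 counts in all 4 libraries. Gm9774 lies within the span and went from 95.1 and 97.9 CPM to 84.8 and 81.6 CPM in CTO19 and from 143 and 144 CPM to 82.0 and 85.8 CPM in apsMC706. Gm9774 and Gm4858 were the 2 genes called lower in both lines.

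**Figure D3:**
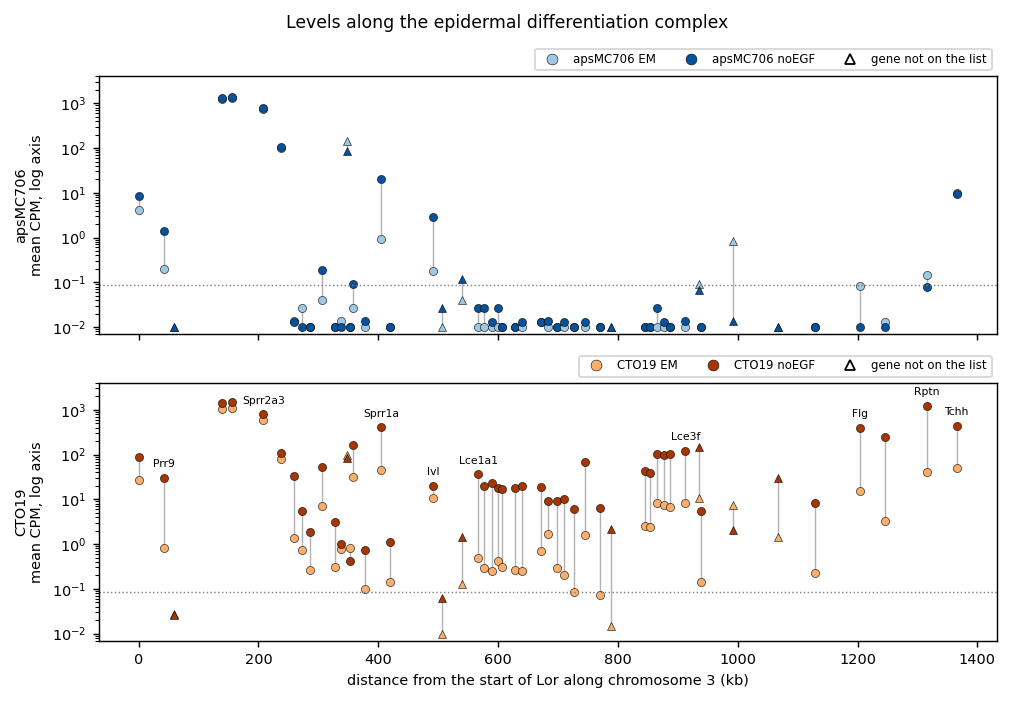
Mean CPM of each protein-coding gene in the epidermal differentiation complex by distance from the start of Lor in kb, on a log axis, for apsMC706 above and CTO19 below. Light and dark points are EM and noEGF, triangles are genes outside the list of 59, the dotted line is the level that 0 counts allow (the largest of the 8 libraries), and means of 0 are drawn at 0.01. In apsMC706 most points from the Lce1 to the Lce3 genes lie under the dotted line, and in CTO19 nearly all dark points lie above the light ones.

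Genes outside the envelope list were read the same way, as counts called and not as a test of the list. The shares to set beside these counts are again 34.7% higher and 33.3% lower over all genes in CTO19, and 34.1% and 33.1% in apsMC706. Of 15 tested scaffold genes and other precursors, 13 were called higher and 1 lower in CTO19 noEGF (median log2 fold change 0.81). Desmoplakin (Dsp), which anchors keratin to desmosomes, was at 1040 and 794 CPM in EM and 1250 and 1150 CPM in noEGF, and Sfn, which regulates keratinocyte growth, at 539 and 540 CPM and then 485 and 478 CPM. In apsMC706 2 of the 15 were called higher and 6 lower (median -0.15). Of 18 barrier lipid genes, 16 were called higher and 1 lower in CTO19 (median 1.13) and 4 higher and 4 lower in apsMC706, both under the share over all genes. Cers3, which makes the ceramides of very long chains, was at 68.2 and 66.4 CPM in CTO19 EM and 109 and 104 CPM in noEGF, and at 8.68 and 8.93 CPM and then 26.1 and 23.7 CPM in apsMC706. Of 21 tested desquamation proteases and inhibitors, 17 were called higher and 4 lower in CTO19 (median 1.34) and 7 higher and 2 lower in apsMC706, where the higher count is near the share over all genes. Those called higher in CTO19 included Klk5, Klk7 and Spink5, and those called lower were Ctsl, Padi2, Padi3 and Padi4. Of 22 regulators of epidermal differentiation, 11 were called higher and 6 lower in CTO19, and 11 higher and 4 lower in apsMC706, with the lower counts under the share over all genes in both lines. Ehf, an epithelial ETS factor, was at 216 and 227 CPM in CTO19 EM and 433 and 420 CPM in noEGF, and at 342 and 354 CPM and then 255 and 254 CPM in apsMC706. Grhl3, Ovol1 and Zfp750 were called higher and Trp63 and Maf lower in CTO19.

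Keratin markers of the layers moved in CTO19 beside the envelope genes. The suprabasal list summed to 3050 to 3110 CPM in CTO19 EM and 5660 to 5680 CPM in noEGF, and 12 of its 13 genes were called higher, where 34.7% of all genes were. Krt1, a defining keratin of cornifying layers, had a mean of 22.2 CPM in EM and 796 CPM in noEGF, and its partner Krt10 3.03 and 98.1 CPM. The basal list summed to 8740 to 8800 CPM in EM and 5140 to 5750 CPM in noEGF, with 5 of 7 genes called lower, where 33.3% of all genes were, and 1 (Krt15) higher. Krt5 went from a mean of 3790 to 2230 CPM, Krt14 from 3480 to 2520 CPM and Trp63 from 130 to 65.5 CPM. In apsMC706 the suprabasal list summed to 94.8 to 94.9 CPM in EM and 90.9 to 92.7 CPM in noEGF, mostly from Krt4, and Krt1 stayed at 0.135 and 0.376 CPM. The intestinal list summed to 2650 to 2660 and 2470 to 2490 CPM in apsMC706 and to 1850 to 2000 and 1990 to 2110 CPM in CTO19, mostly from Krt8, Krt18 and Epcam. In CTO19, 6 of its 9 tested genes were called higher in noEGF and 2 lower, with Cdh17 going from a mean of 1.25 to 5.73 CPM, Hnf4a from 0.0707 to 0.767, Vil1 from 28.2 to 55.1 and Lgals4 from 8.75 to 16.9. Fibroblast markers summed to 1.80 to 1.91 CPM in CTO19 EM and 10.8 to 11.4 CPM in CTO19 noEGF, where Dcn went from a mean of 0.1 to 9.90 CPM, and to 4.0 to 4.09 and 7.72 to 8.9 CPM in apsMC706. Col1a2 and Lum, also fibroblast markers, stayed at or under 0.0426 CPM in every group. Immune markers summed to at most 0.745 CPM and endothelial markers to at most 1.79 CPM in any library. The part of these markers in the levels of the envelope genes was not tested. How far a changed share of basal and suprabasal cells goes with the levels of the envelope genes was not tested.

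**Figure D4:**
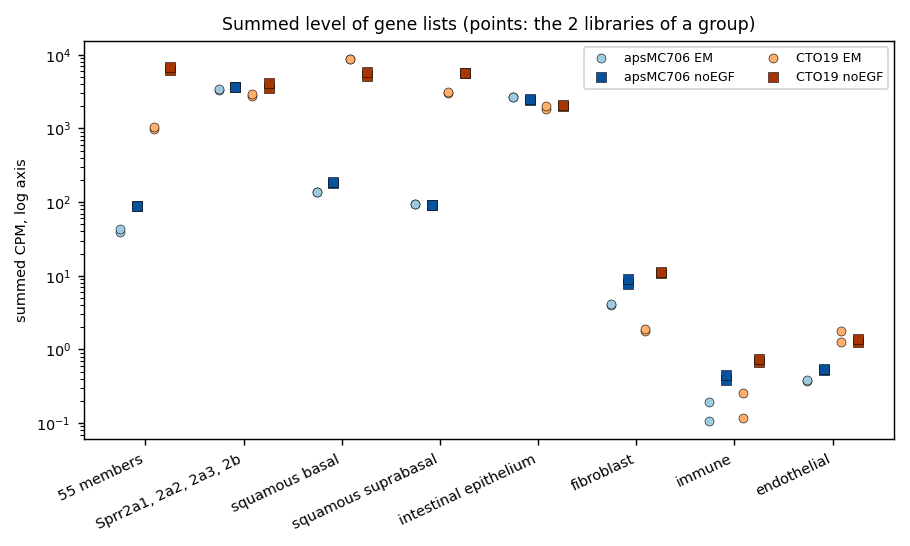
Summed CPM of gene lists in each group on a log axis, with a point for each of the 2 libraries: 55 of the 59 genes, the 4 similar Sprr2 genes, and marker lists of cell types. The 55 genes and the suprabasal markers are highest in CTO19 noEGF, the basal markers in CTO19 EM, and the fibroblast, immune and endothelial markers stay at or under 11.4 CPM, the fibroblast markers being highest in CTO19 noEGF.

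In apsMC706, 8 of the 59 genes were called higher in noEGF (background 34.1%) and 0 lower (33.1%). At most 3 counts per library were found for 39 of the 59 in apsMC706 EM and for 36 in noEGF. Such genes could hardly be called, so nothing is read from the share called. The 8 were Sprr1a, Ivl, Prr9, Sbsn, Lor, Asprv1, Cdsn and Tgm1. With DESeq2's Wald test 13 were called higher and 1 lower, and 13 were called higher without CTO19 noEGF replicate 1 or 2, in each case with the 4 similar Sprr2 genes among them. Sprr1a was at 0.926 and 0.899 CPM in EM and 20 and 21.5 CPM in noEGF, 22.7-fold higher (log2 fold change 4.5, SE 0.274). Ivl was at 0.132 and 0.218 CPM in EM (13 counts) and 3.16 and 2.59 CPM in noEGF (214 counts), 16.4-fold higher. Prr9 went from 0.159 and 0.245 CPM to 1.23 and 1.64 CPM (7.09-fold) and Sbsn from 2.06 and 2.94 CPM to 11.8 and 10.2 CPM (4.39-fold). In all 4 genes the media lay well apart. Lor went from 3.68 and 4.44 CPM to 8.45 and 8.11 CPM (2.04-fold), and Tgm1 from 19.1 and 19.6 CPM to 26.9 and 28.3 CPM (1.43-fold). Asprv1 (1.67-fold) and Cdsn (1.55-fold) were called on smaller changes, and both lost the call under limma-voom. Asprv1 also lost it without apsMC706 EM replicate 2 or noEGF replicate 1, and Cdsn without EM replicate 1 or noEGF replicate 2. Tchh, at 9.47 and 10.2 CPM in EM and 9.57 and 9.54 CPM in noEGF, and Dmkn, at 0.582 and 0.708 CPM and then 0.709 and 0.502 CPM, overlapped between media.

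The responses of the lines were compared directly for the genes counted in both, using the difference of the log2 fold changes (CTO19 minus apsMC706) in edgeR's quasi-likelihood test, with p-values adjusted by the Benjamini-Hochberg method over all genes. Each difference contains the CTO19 response that the choice of genes used, so the calls are descriptions. Over the 59 genes 15 differences were called higher in CTO19 (background 30.4%) and 3 lower (25.6%). The response was the larger one in CTO19 for 6 genes with counts in both lines and unshared reads. Cdsn had a difference of 3.20 (SE 0.229, adjusted p = 1.12e-07), Tchh 3.12 (SE 0.167, adjusted p = 1.32e-06), Asprv1 1.92 (SE 0.304, adjusted p = 0.00023) and Dmkn 1.74 (SE 0.237, adjusted p = 1.84e-05). For Lor the difference was 0.68 (SE 0.2, adjusted p = 0.0174). Prr9, whose levels were known when the genes were chosen, had a difference of 2.38 (SE 0.562), given without a p-value. The response was the smaller one in CTO19 for Ivl, with a difference of -3.08 (SE 0.677, adjusted p = 0.00742), for Sprr1a with -1.37 (SE 0.37, adjusted p = 0.0239) and for Tgm1 with -0.51 (SE 0.0663, adjusted p = 1.23e-05). Ivl and Sprr1a had both their larger ratio and their lower level in apsMC706, where each was under 1 CPM in EM. Some of these calls rest on single libraries. Leaving out apsMC706 EM replicate 1 gave Ivl an adjusted p of 0.0503, and the call of Prr9 was lost without apsMC706 EM replicate 2. With all libraries, limma-voom gave Ivl an adjusted p of 0.0811. That of Lor was lost without apsMC706 EM replicate 2 (0.101) or apsMC706 noEGF replicate 2 (0.0553). That of Sprr1a was lost without apsMC706 EM replicate 1 (0.0781) or 2 (0.0767), without CTO19 noEGF replicate 1 (0.0525) and with limma-voom (0.0952).

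The difference did not pass the test for Sbsn (-0.14, SE 0.15, adjusted p = 0.47), Lypd3 (-0.05, SE 0.389, adjusted p = 0.94) and Aloxe3 (1.15, SE 0.48, adjusted p = 0.0549). The 4 similar Sprr2 genes had differences of 0.32 to 0.33 (adjusted p = 0.00939 to 0.0145). For these 4, the difference was 0.131 to 0.135 and not called without CTO19 noEGF replicate 2. The calls were also lost without CTO19 EM replicate 1, and those of Sprr2a1, Sprr2a2 and Sprr2a3 without CTO19 EM replicate 2. With the stricter filter on low counts and all libraries, the 4 differences were 0.216 to 0.223 and not called (adjusted p = 0.0588 to 0.0735). For genes with 0 or few counts in apsMC706, among them all Lce1 and Lce3 genes, the response of that line was at or near the detection limit and the difference of responses is not given. The 18 calls include 5 such genes, which passed the filter through CTO19, and nothing is read from those 5.

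**Figure D5:**
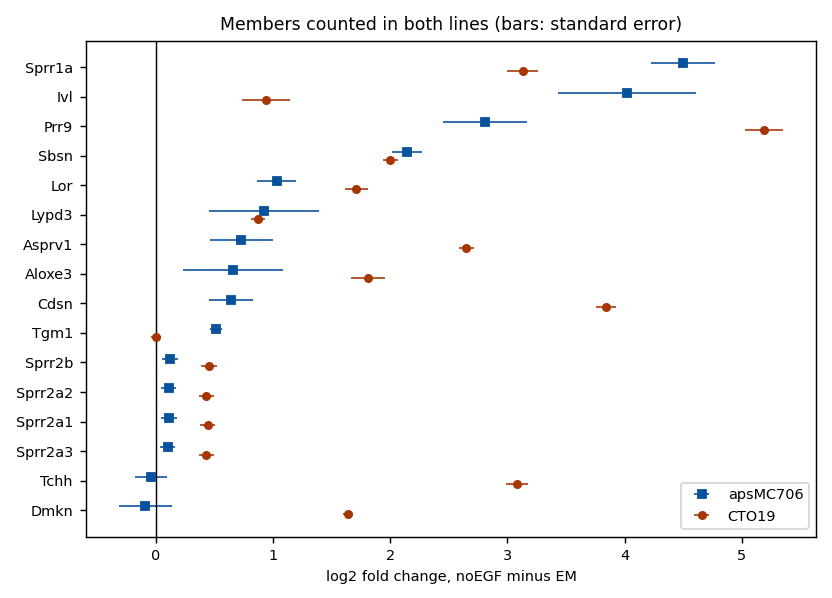
Log2 fold change, noEGF minus EM, in apsMC706 (blue squares) and CTO19 (orange circles) for the genes with a mean of at least 5 counts per library in both lines, with bars of 1 standard error. Sprr1a and Ivl lie farther right in apsMC706, Cdsn, Tchh, Dmkn, Asprv1 and Prr9 farther right in CTO19, and Sbsn and Lypd3 overlap.

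With EGF present, the levels of most of these genes were also higher in CTO19 than in apsMC706. In EM 52 of the 59 were called higher in CTO19 (background 37.5%) and 4 lower (33.8%). Levels in CTO19 were known when the genes were chosen and CTO19 carried most of them through the filter, so these counts are a description and nothing is read from them. Tgm1 was 10-fold higher in CTO19 (log2 difference 3.32, SE 0.0485), Dmkn 293-fold (8.19, SE 0.0851) and Lypd3 355-fold (8.45, SE 0.145). Asprv1 was 84.7-fold higher, Ivl 60.7-fold, Sbsn 54.4-fold and Sprr1a 50.8-fold. Smaller gaps were seen for Lor (6.78-fold), Cdsn (5.71-fold), Tchh (5.18-fold) and Prr9 (4.10-fold, log2 difference 2.02, SE 0.41). Krtdap, with 2 counts in apsMC706 EM, was 1660-fold higher in CTO19 (exact 95% counting interval 459 to 13700) and Sprr1b, also with 2 counts, 1160-fold (320 to 9550). Lce3c had 0 counts in apsMC706 EM and was at least 104-fold higher in CTO19. For the Lce1 genes the bound was low, at least 20.7-fold for Lce1h and at least 1.77-fold for Lce1m, because CTO19 itself had few counts in EM. The 3 genes not called were Flg2, Lce1k and Lce1l. The 4 called lower in CTO19 were Sprr2a1, Sprr2a2, Sprr2a3 and Sprr2b, at 0.782 to 0.862 of their level in apsMC706. None of these 4 calls remained without CTO19 EM replicate 1, and 2 did without replicate 2.

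In noEGF 55 of the 59 were called higher in CTO19 (background 45.7%) and 0 lower (34.3%), and the 4 not called were Sprr2a1, Sprr2a2, Sprr2a3 and Sprr2b. Without CTO19 noEGF replicate 2 the number called lower was 3. Rptn, with 6 counts in apsMC706 noEGF, was 15000-fold higher in CTO19. Flg was at least 4900-fold higher in CTO19, Hrnr at least 3020-fold and Lce3e at least 1290-fold, each against 0 counts in apsMC706 noEGF. Leaving out those 4 Sprr2 genes, and among genes with more than 3 counts in apsMC706 noEGF, the gap was narrowest for Ivl (7.05-fold), Tgm1 (7.06-fold), Lor (10.9-fold), Sprr1a (19.6-fold) and Prr9 (21.2-fold), which were also among the 8 called higher without EGF in apsMC706. Compared with EM the gap was smaller in noEGF for Ivl, Tgm1 and Sprr1a, which restates the differences of responses above and is not further evidence. It was also slightly smaller for Sbsn (54.4-fold in EM, 49.5-fold in noEGF) and Lypd3 (355-fold and 342-fold), whose differences of responses were not called.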

How the data were processed

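Poly(A)-selected RNA of 8 libraries was analysed, 2 in each of 4 groups of line and medium. Per the submitters' processing notes, alignment used STAR 2.7.0a and mm10, and the authors deposited raw counts per Ensembl gene. The counting program was not given in the sources used here. Names, positions and overlaps came from GENCODE M21, in which 32680 of the 32728 identifiers were found. Counts were tested in R 4.3.3 with edgeR 4.0.16: filterByExpr with the 4 groups (16719 genes, 99.971% of counts), TMM factors, a model of the 4 group means, robust quasi-likelihood F-tests (two-sided, 4 residual degrees of freedom) and Benjamini-Hochberg adjustment over all tested genes at 0.05. The script was tested on simulated data. Floors (3 counts per library) and intervals (exact, 95%) cover counting error only, since amplified reads are not independent molecules. The members and the gene lists were chosen with earlier results of these data known, and named genes followed a rule of mean level (at least 1 CPM in a group), with up to 3 members of largest mean CPM among those called for each other list, plus cell type markers. Klk5, Klk7, Spink5, Grhl3, Ovol1, Zfp750, Maf, Krt15, Padi2, Padi3 and Padi4 were named outside this rule, after their values were seen. Alternatives were other size factors, other filters, limma-voom (limma 3.58.1), DESeq2 1.42.0 with its Wald test, a threshold of 0.01, non-robust moderation, the replicate block and each library left out in turn. Promoter windows came from RefSeq (GRCm38.p6).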

Additional observations from a re-analysis of the deposited data

Results flagged for a closer look

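The difference of the responses to noEGF was called in the genes below by edgeR's quasi-likelihood test, with adjustment over all genes tested. The adjustment does not allow for the choice of genes, which was made with earlier results on these libraries known. Each difference contains the CTO19 response that the choice used, so the calls are descriptions. This holds most of all for Prr9, whose levels were among those results. As given above, the calls of Ivl, Sprr1a, Lor, Prr9 and the similar Sprr2 genes were lost when single libraries were left out. Values are log2 differences, CTO19 minus apsMC706.

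The change was larger in CTO19 for Cdsn (3.2), Tchh (3.12), Prr9 (2.38), Asprv1 (1.92), Dmkn (1.74) and Lor (0.68). It was larger in CTO19 by a small amount for Sprr2a1 (0.33), Sprr2a2 (0.33), Sprr2a3 (0.32) and Sprr2b (0.33). Their reads may be shared between copies, those of Sprr2b to a smaller extent. It was smaller in CTO19 for Ivl (-3.08), Sprr1a (-1.37) and Tgm1 (-0.51).

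The same test called 5 further genes (Calm4, Calml3, Cnfn, Nccrp1 and Sprr2e) whose counts in apsMC706 were at or near the detection limit. They passed the filter on low counts through CTO19, and the levels of Calml3 and Nccrp1 were known when the genes were chosen, as were those of Prr9. The differences of these 5 genes are not given and nothing is read from their calls.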

How the results depend on the processing

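The genes called higher in CTO19 noEGF (53 to 56 with each library left out in turn), higher in CTO19 in EM (44 to 54) and higher in CTO19 in noEGF (55 to 57) stayed within 1.5 times their count under every alternative. In apsMC706 the number higher was 13 with DESeq2's Wald test and 7 to 13 with a library left out, and the number lower 1 with the Wald test. The number lower in CTO19 noEGF was 0 at an adjusted p under 0.01, with the stricter filter and with the Wald test, and 0 to 1 with a library left out. Differences of the responses called higher numbered 7 at 0.01, 27 with the Wald test and 35 with limma-voom, and those called lower 1 with limma-voom and 1 to 3 with a library left out. Genes lower in CTO19 numbered 0 to 4 in EM with a library left out, and in noEGF 1 without the filter and 0 to 3 with a library left out. The cause of these shifts was not tested.

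Signs changed only where the value with all libraries was near 0. The apsMC706 response of Tchh was 0.0155 with DESeq2 size factors, 0.0358 with upper-quartile factors, 0.0242 without the filter, 0.0662 with the stricter filter, 0.0154 with the Wald test and -0.109 to 0.0455 with a library left out. That of Dmkn was 0.0153 with the stricter filter and -0.365 to 0.126 with a library left out. The CTO19 response of Tgm1 was -0.0141 without the filter and -0.0224 to 0.0498 with a library left out. The difference of responses was -0.641 to 0.451 for Lypd3 and -0.409 to 0.11 for Sbsn with a library left out. The line difference in noEGF of Sprr2b was -0.0288 with DESeq2 size factors, -0.0633 with upper-quartile factors, -0.0553 without the filter, -0.0635 with the stricter filter, -0.0291 with the Wald test and -0.174 to 0.0569 with a library left out. Those ranges were -0.0900 to 0.141 for Sprr2a1 and -0.105 to 0.121 for Sprr2a2, lowest without CTO19 noEGF replicate 2. Of the other values of single genes, 1859 kept direction and call, 46 lost and 36 gained a call.

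Replicate numbers did not pair libraries across groups (correlations of deviations -0.00825 to 0.0485). With the replicate block the adjusted p of the Sprr1a difference was 0.061, that of Aloxe3 0.0485 and that of Sprr2a1 between lines in noEGF 0.0453.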
